A study of Mus musculus with 12 samples.

Results

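The 10 genes described here encode the BAP1 deubiquitinase complex, also called the Polycomb-repressive deubiquitinase. They were taken by name from the gene count table and are Bap1, Asxl1, Asxl2, Asxl3, Mbd5, Mbd6, Foxk1, Foxk2, Hcfc1 and Ogt, 10 of 55291 genes. Of these, 9 had enough counts to be tested among 15825 genes, and Asxl3 did not. RNA was sequenced from bone marrow LK cells, meaning lineage-negative cKit+ stem and progenitor cells selected on beads, of 12-month-old C57BL/6 mice. Each of 4 genotypes was represented by 3 mice with 1 library each. WT mice served as controls. Asxl1Y588XTg mice carried a transgene for a truncated ASXL1 protein and were described as preleukemic. Kdm6bΔ/+ mice had lost 1 allele of Kdm6b, a histone H3 lysine demethylase gene, through the interferon-responsive Mx1Cre after pI:pC injection. Asxl1Y588XTg Kdm6bΔ/+ mice carried both changes. The promoter of the transgene is not given in the sources used here, nor whether the WT and Asxl1Y588XTg mice used for RNA carried Mx1Cre or received pI:pC.

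BAP1 is a ubiquitin hydrolase that removes from histone H2A the ubiquitin placed there by Polycomb repressive complex 1. It needs an ASXL protein, whose N-terminal DEUBAD domain binds and activates it. FOXK1 and FOXK2 are forkhead proteins that bind DNA, MBD5 and MBD6 bind the ASXL proteins, HCFC1 is a transcriptional co-regulator bound by BAP1, and OGT adds O-GlcNAc to proteins and takes part in the cleavage of HCFC1. Truncating ASXL1 mutations are frequent in myeloid malignancies.

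The position at which the transgenic protein ends is shown to place the truncation in the gene. The sequence is reference mm10 sequence with the GENCODE vM21 transcript, chr2:153399260-153399322, plus strand, in exon 13 of 13 of Asxl1, with codon 588 in capitals.
Asxl1 codon 588: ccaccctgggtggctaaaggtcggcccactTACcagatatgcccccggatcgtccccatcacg
The 587 codons before this tyrosine codon make up 38.8% of the 1514 codons of the transcript. Their 1761 coding bases are 23.7% of the 7444 exonic bases of Asxl1 in GENCODE vM21. The annotation used for the counts is not given in the sources used here. The extent of the transgene's transcript is not given in the sources used here. A count for the whole gene cannot separate transcripts of the transgene from those of the endogenous alleles, and whether transgene reads were counted under Asxl1 was not tested.

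The libraries held between 14451522 and 23482563 counts assigned to genes. Levels are given below as normalized counts, the counts scaled to a common library size. The targeted gene was examined first. Kdm6b was at 2142, 2372 and 1869 normalized counts in WT mice 1 to 3 and at 1622, 1529 and 1346 in Kdm6bΔ/+ mice. It was at 2270, 2303 and 2187 in Asxl1Y588XTg mice and at 1649, 1873 and 1909 in Asxl1Y588XTg Kdm6bΔ/+ mice. The libraries with the deletion lay below their controls in both pairs with no overlap. Groups failed to overlap, in either direction, for 8.93% and 21.2% of all genes in these pairs. The log2 fold change was -0.51 (SE 0.11) for Kdm6bΔ/+ against WT and -0.30 (SE 0.07) for Asxl1Y588XTg Kdm6bΔ/+ against Asxl1Y588XTg, with adjusted p-values of 0.279 and 0.0717 in edgeR's quasi-likelihood test. In DESeq2 the adjusted p-values were 0.0191 and 0.0261. In alternative edgeR fits they ran from 0.00045 to 0.9999 and from 0.0112 to 0.457, lowest in both without the filter on low counts. The levels were 0.704 and 0.812 of the controls in edgeR, short of the 1.5-fold threshold used for calls. For the transgene, the log2 fold change of Kdm6b was 0.08 (SE 0.09) against WT. It was 0.27 (SE 0.09, adjusted p = 0.263, same edgeR test) for Asxl1Y588XTg Kdm6bΔ/+ against Kdm6bΔ/+. A count over the whole gene includes transcripts of the intact allele and may include the remaining exons of the deleted allele. Kdm6b exons are overlapped on the opposite strand by Kdm6bos, and the strand setting of the counting is not given in the sources used here.

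Some measures other than the genes of interest differed between libraries or genotypes. Transcripts of Y-linked genes were present in 0 of 3 WT, 2 of 3 Kdm6bΔ/+, 1 of 3 Asxl1Y588XTg and 3 of 3 Asxl1Y588XTg Kdm6bΔ/+ libraries, so libraries with and without them were not balanced across genotypes. Hcfc1 and Ogt lie on the X chromosome. The mean correlation of a library with the other 11 on the log2 scale ranged from 0.954 in WT mouse 1 to 0.979. The 8 stem and progenitor markers (Kit, Cd34, Myb, Gata2, Runx1, Tal1, Lmo2 and Mpo) were all detected in every library, with summed normalized counts of 207976 ± 15087 (SD, n = 3) in WT, 229215 ± 30090 in Kdm6bΔ/+, 197951 ± 5119 in Asxl1Y588XTg and 194121 ± 12219 in Asxl1Y588XTg Kdm6bΔ/+ mice, led by Mpo in WT. All 8 neutrophil markers were detected as well, led by S100a9, at sums of 793391 ± 173127 in WT, 801708 ± 23140 in Kdm6bΔ/+, 708642 ± 62817 in Asxl1Y588XTg and 759184 ± 77735 in Asxl1Y588XTg Kdm6bΔ/+ mice. The highest neutrophil sum of a library, 990739, was in WT mouse 2. All 6 megakaryocyte markers, led by Vwf, summed to 2643, 1379 and 2589 in WT, 1733, 1807 and 1478 in Kdm6bΔ/+, 5783, 11827 and 4372 in Asxl1Y588XTg and 4338, 2832 and 3887 in Asxl1Y588XTg Kdm6bΔ/+ mice. The transgenic libraries of both kinds therefore lay above the libraries without the transgene for this list. In bulk RNA, fewer cells of a type and less RNA per cell cannot be told apart, and the part of these markers in the results below was not tested.

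Per kilobase of exon, Hcfc1 was the most abundant member with a mean level of 919 normalized counts per kb over the 12 libraries, above 95.4% of the genes tested with a known length. Asxl1 followed at 398 per kb, then Bap1 and Foxk2 both at 356, Foxk1 at 285, Mbd6 at 278, Ogt at 249.8 and Asxl2 at 119.3 per kb. Mbd5 was the lowest tested member at 28.6 per kb, above 35.9% of genes. Within WT, the levels per kb of Asxl1 (376 ± 36.2, SD, n = 3), Bap1 (362 ± 64.6) and Foxk2 (353 ± 47.4) differed by less than their spread, and so did those of Ogt (275 ± 72.3), Foxk1 (259 ± 22.5) and Mbd6 (249 ± 28.6). Hcfc1 (884 ± 21.4), Asxl2 (121 ± 5.41) and Mbd5 (28.3 ± 2.01) stood apart from their neighbours by more than their spread.

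**Figure D1:**
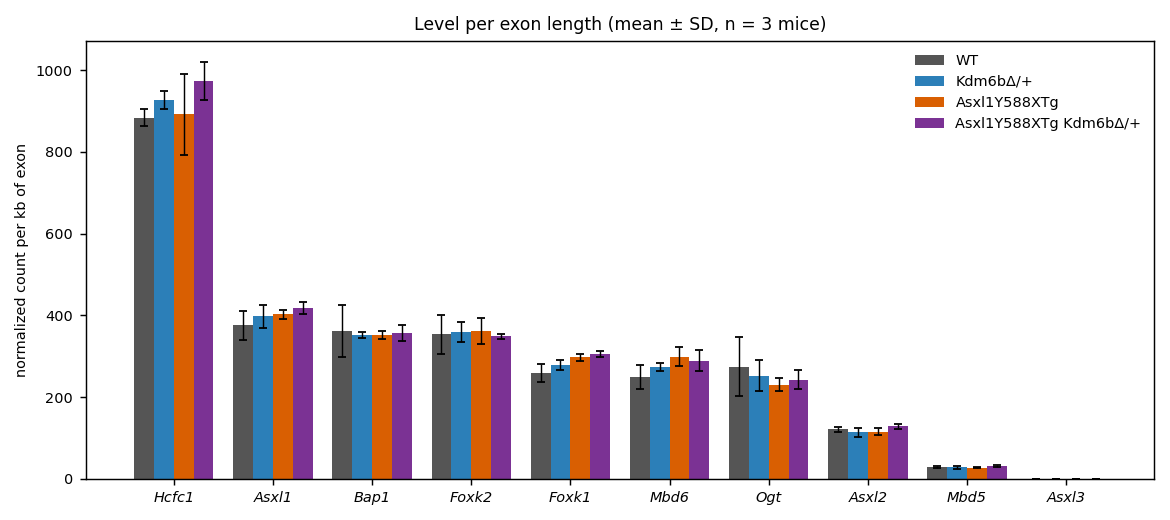
Normalized counts per kilobase of exon (vertical axis) for the 10 genes, ordered by mean level, in the 4 genotypes; bars are means and error bars SD over 3 mice. Hcfc1 stands highest at 884 to 974 per kb, Mbd5 lowest of the tested genes, and the Asxl3 bars are too low to see.

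The 9 members tested differed little in the 4 pairwise comparisons made. Asxl1Y588XTg Kdm6bΔ/+ was not compared directly with WT, and Asxl3 is described below. None of the 9 members tested passed the threshold of an adjusted p under 0.05 with a fold change above 1.5 in any comparison, where edgeR's quasi-likelihood test called 1.61% of all genes for Asxl1Y588XTg against WT, 0.0948% for Kdm6bΔ/+ against WT, 1.74% for Asxl1Y588XTg Kdm6bΔ/+ against Asxl1Y588XTg and 0.0948% for Asxl1Y588XTg Kdm6bΔ/+ against Kdm6bΔ/+. The smallest adjusted p-values of a member in these comparisons were 0.453, 0.9999, 0.191 and 0.390. Across the 36 estimates, log2 fold changes ran from -0.26 to 0.26, with standard errors of 0.06 to 0.20. In 34 of the 36, the 95% confidence interval of the fold change lay wholly within 1.5-fold in either direction, and both exceptions were Ogt against WT. At an unadjusted p under 0.05 there were 2 members for Asxl1Y588XTg against WT (Foxk1 and Mbd6), 0 for Kdm6bΔ/+ against WT, 2 for Asxl1Y588XTg Kdm6bΔ/+ against Asxl1Y588XTg (Asxl2 and Mbd5) and 1 for Asxl1Y588XTg Kdm6bΔ/+ against Kdm6bΔ/+ (Asxl2), all toward higher levels. These counts rested on single libraries: without each in turn they ran from 0 to 4 (4 without WT mouse 2), from 0 to 3 (3 without WT mouse 2), from 0 to 3 (0 without Asxl1Y588XTg Kdm6bΔ/+ mouse 3, 3 without Asxl1Y588XTg mouse 3) and from 0 to 1. Over all genes tested the share with all libraries was 9.35%, 3.49%, 15.4% and 12.2%. The libraries of both groups did not overlap for 1, 0, 1 and 2 of the 9 members, a separation that 15.7%, 8.93%, 21.2% and 18.9% of all genes showed. The median log2 fold change of the members was 0.01, 0.03, 0.07 and 0.08 in the 4 comparisons, beside -0.01, -0.00, -0.00 and 0.00 over all genes tested. Comparisons that share a group of mice are not independent of each other.

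**Figure D2:**
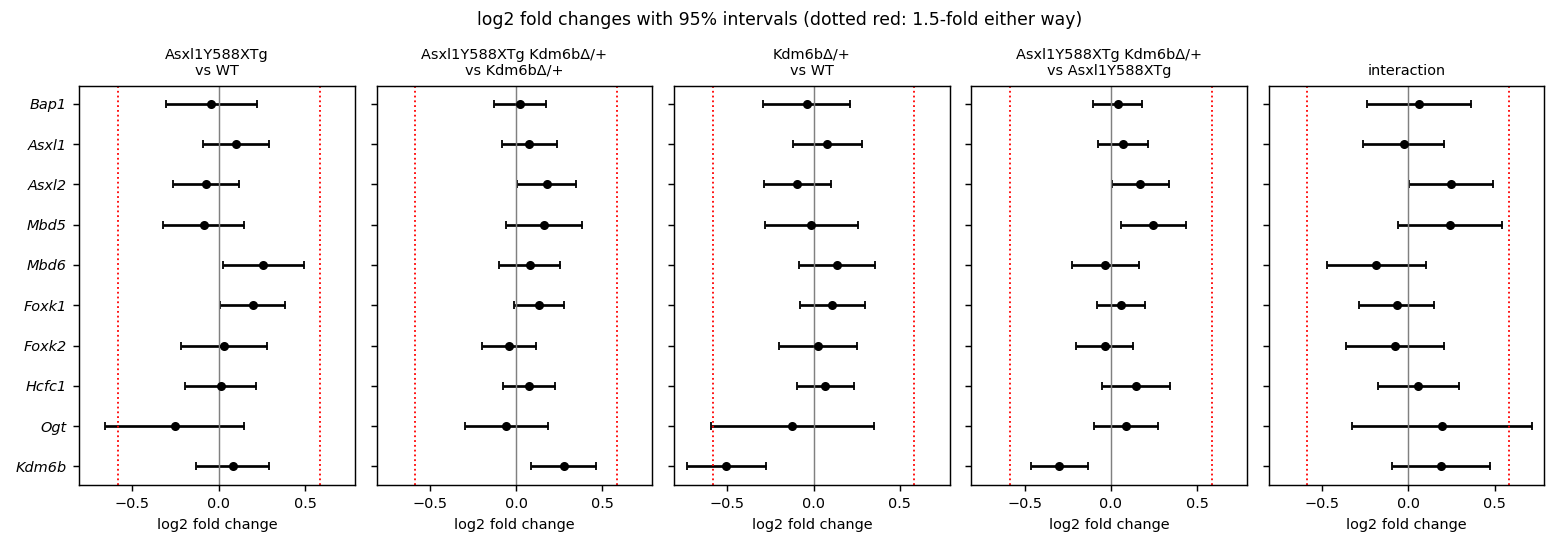
Log2 fold changes (horizontal axis) of the 9 tested members and Kdm6b in the 4 pairwise comparisons and the interaction; points are edgeR estimates, bars 95% confidence intervals, and dotted lines mark 1.5-fold in either direction. Among the members only intervals of Ogt cross a dotted line.

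Bap1, the catalytic subunit, had nearly the same mean in all genotypes. Its normalized counts were 2020, 1422 and 1639 in WT, 1688, 1621 and 1640 in Kdm6bΔ/+, 1607, 1693 and 1643 in Asxl1Y588XTg and 1757, 1690 and 1570 in Asxl1Y588XTg Kdm6bΔ/+ mice. Both the highest and the lowest library were WT, and every other library lay between them. The log2 fold change of Asxl1Y588XTg against WT was -0.04 (SE 0.12, 95% interval -0.31 to 0.22), and it was 0.10 without WT mouse 1, the library least correlated with the rest. For Asxl1Y588XTg Kdm6bΔ/+ against Asxl1Y588XTg it was 0.04 (SE 0.06).

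Asxl1, which encodes the scaffold whose truncated form the transgene adds, was at 2545, 3081 and 2762 normalized counts in WT and 3191, 2796 and 2883 in Kdm6bΔ/+ mice. It was at 2906, 3060 and 3034 in Asxl1Y588XTg and 3025, 3068 and 3244 in Asxl1Y588XTg Kdm6bΔ/+ mice. The transgenic and nontransgenic libraries overlapped in both pairs. With the transgene the level was 1.07-fold that of WT (95% interval 0.937 to 1.22) and 1.05-fold that of Kdm6bΔ/+ (95% interval 0.945 to 1.18), and the adjusted p-values in edgeR's quasi-likelihood test were 0.836 and 0.700. On the log2 scale, leaving out each library in turn gave 0.03 (without WT mouse 1) to 0.18 (without WT mouse 2) against WT and 0.04 (without Kdm6bΔ/+ mouse 2) to 0.14 (without Kdm6bΔ/+ mouse 1) against Kdm6bΔ/+. An antisense gene, 2500004C02Rik, overlaps Asxl1 exons at 40.8 ± 14.2 normalized counts (SD, n = 3) in WT, and the same limit of strand applies.

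Asxl2, the paralog of Asxl1, was at 2020, 1849 and 1914 normalized counts in WT and 1843, 1947 and 1632 in Kdm6bΔ/+ mice. Asxl1Y588XTg mice had 1826, 1696 and 1976, and Asxl1Y588XTg Kdm6bΔ/+ mice 2116, 1948 and 2057. The Asxl1Y588XTg Kdm6bΔ/+ libraries were above all 3 Kdm6bΔ/+ libraries, narrowly, and overlapped the Asxl1Y588XTg libraries. Groups failed to overlap in the former comparison for 18.9% of all genes. Its log2 fold change was 0.18 (SE 0.08) against Kdm6bΔ/+ and 0.17 (SE 0.08) against Asxl1Y588XTg, with adjusted p-values of 0.390 and 0.302 in edgeR's quasi-likelihood test. The former was 0.11 without Kdm6bΔ/+ mouse 3 and 0.23 without Kdm6bΔ/+ mouse 2. The latter was 0.27 with a term for Y-linked transcripts in a fit of all 12 libraries. Asxl2 exons are also overlapped by an antisense gene, 1110002L01Rik, at 40.8 ± 10.1 normalized counts in WT.

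Asxl3, the third paralog, was at the limit of detection. Its raw counts were 0, 1 and 0 in WT, 0, 0 and 0 in Kdm6bΔ/+, 7, 7 and 7 in Asxl1Y588XTg and 3, 1 and 1 in Asxl1Y588XTg Kdm6bΔ/+ libraries. All 3 Asxl1Y588XTg libraries were above every other library. Groups failed to overlap for 15.7% of the genes tested against WT and for 21.2% against Asxl1Y588XTg Kdm6bΔ/+. Those shares do not cover genes below the filter, such as Asxl3. The 21 counts in Asxl1Y588XTg against 1 in WT gave a ratio of 21.3 after scaling by library size (95% interval 3.42 to 879, counting error only), and the 21 against 5 in Asxl1Y588XTg Kdm6bΔ/+ a ratio of 4.79 (1.76 to 16.2). Against Kdm6bΔ/+, which had 0 counts, the lower 95% bound of the ratio from counting error was 5.04. When the filter on low counts was left out, the adjusted p-value in edgeR's quasi-likelihood test was 0.325 against WT and 0.168 for Asxl1Y588XTg Kdm6bΔ/+ against Asxl1Y588XTg, so Asxl3 did not pass in either.

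MBD5 and MBD6 are methyl-CpG-binding domain family proteins. Mbd6 was at 1005, 1252 and 1076 normalized counts in WT, 1188, 1270 and 1202 in Kdm6bΔ/+, 1213, 1374 and 1407 in Asxl1Y588XTg and 1174, 1289 and 1401 in Asxl1Y588XTg Kdm6bΔ/+ mice. WT and Asxl1Y588XTg overlapped through WT mouse 2 and Asxl1Y588XTg mouse 1. For this pair the log2 fold change was 0.26 (SE 0.11, adjusted p = 0.453, edgeR's quasi-likelihood test) and it ranged from 0.19 (without WT mouse 1) to 0.35 (without WT mouse 2) when each library was left out in turn. Mbd5 was at 558, 594 and 516 in WT, 621, 528 and 506 in Kdm6bΔ/+, 517, 550.5 and 505 in Asxl1Y588XTg and 608, 587 and 650 in Asxl1Y588XTg Kdm6bΔ/+ mice. The Asxl1Y588XTg Kdm6bΔ/+ libraries lay above all Asxl1Y588XTg libraries, a separation found for 21.2% of all genes. The log2 fold change was 0.25 (SE 0.09, 95% interval 0.06 to 0.43, adjusted p = 0.191, edgeR's quasi-likelihood test). In a fit of all 12 libraries it was 0.23 (SE 0.10, adjusted p = 0.388, same edgeR test). With a term for Y-linked transcripts added to that fit it was 0.16 (SE 0.12), with an adjusted p of 0.905 in the same edgeR test. Mbd5 shares exonic sequence with Orc4 on the opposite strand, which was at 544 ± 70.9 normalized counts in WT.

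Foxk1 had its lowest mean in WT and its highest in Asxl1Y588XTg Kdm6bΔ/+ mice. Normalized counts were 1822, 2152 and 1910 in WT, 2150, 2180 and 2012 in Kdm6bΔ/+, 2187, 2312 and 2257 in Asxl1Y588XTg and 2258, 2326 and 2363 in Asxl1Y588XTg Kdm6bΔ/+ mice. The transgenic libraries were above their nontransgenic controls without overlap in both pairs. Groups failed to overlap, in one direction or the other, for 15.7% of all genes for Asxl1Y588XTg against WT. For Asxl1Y588XTg Kdm6bΔ/+ against Kdm6bΔ/+ the share was 18.9%. Foxk1 had a log2 fold change of 0.20 (SE 0.08) against WT and of 0.13 (SE 0.07) for Asxl1Y588XTg Kdm6bΔ/+ against Kdm6bΔ/+, with adjusted p-values of 0.494 and 0.450 in edgeR's quasi-likelihood test. Foxk2 ran from 1633 to 2125 normalized counts, both in WT mice, and its log2 fold changes lay between -0.04 and 0.03 in the 4 comparisons.

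Hcfc1 was at 7355, 7228 and 7582 normalized counts in WT, 7730, 7572 and 7951 in Kdm6bΔ/+, 6727, 7290 and 8350 in Asxl1Y588XTg and 8248, 7714 and 8473 in Asxl1Y588XTg Kdm6bΔ/+ mice. The 3 Asxl1Y588XTg libraries spanned more than the WT and Kdm6bΔ/+ libraries together. The largest log2 fold change, 0.14 (SE 0.09), was that of Asxl1Y588XTg Kdm6bΔ/+ against Asxl1Y588XTg (adjusted p = 0.478, edgeR's quasi-likelihood test), and it was 0.08 without Asxl1Y588XTg mouse 1 and 0.24 without Asxl1Y588XTg mouse 3. Ogt varied most. It was at 2288, 1592 and 2747 in WT, 2169, 2240 and 1679 in Kdm6bΔ/+, 1904, 1711 and 1944 in Asxl1Y588XTg and 2158, 1796 and 1889 in Asxl1Y588XTg Kdm6bΔ/+ mice. The highest and the lowest library were both WT. Its coefficient of variation over the 12 libraries was 16.2%, against 6.64% to 9.94% for the other 8 tested members and a median of 9.998% over the genes with a mean of at least 100 normalized counts. For Asxl1Y588XTg against WT the log2 fold change of Ogt was -0.26 (SE 0.18, 95% interval -0.66 to 0.15, adjusted p = 0.774, edgeR's quasi-likelihood test). Without WT mouse 2, the library with the most neutrophil marker counts, it was -0.44 with an adjusted p of 0.0747 in the same edgeR test, and without WT mouse 3 it was -0.07.

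**Figure D3:**
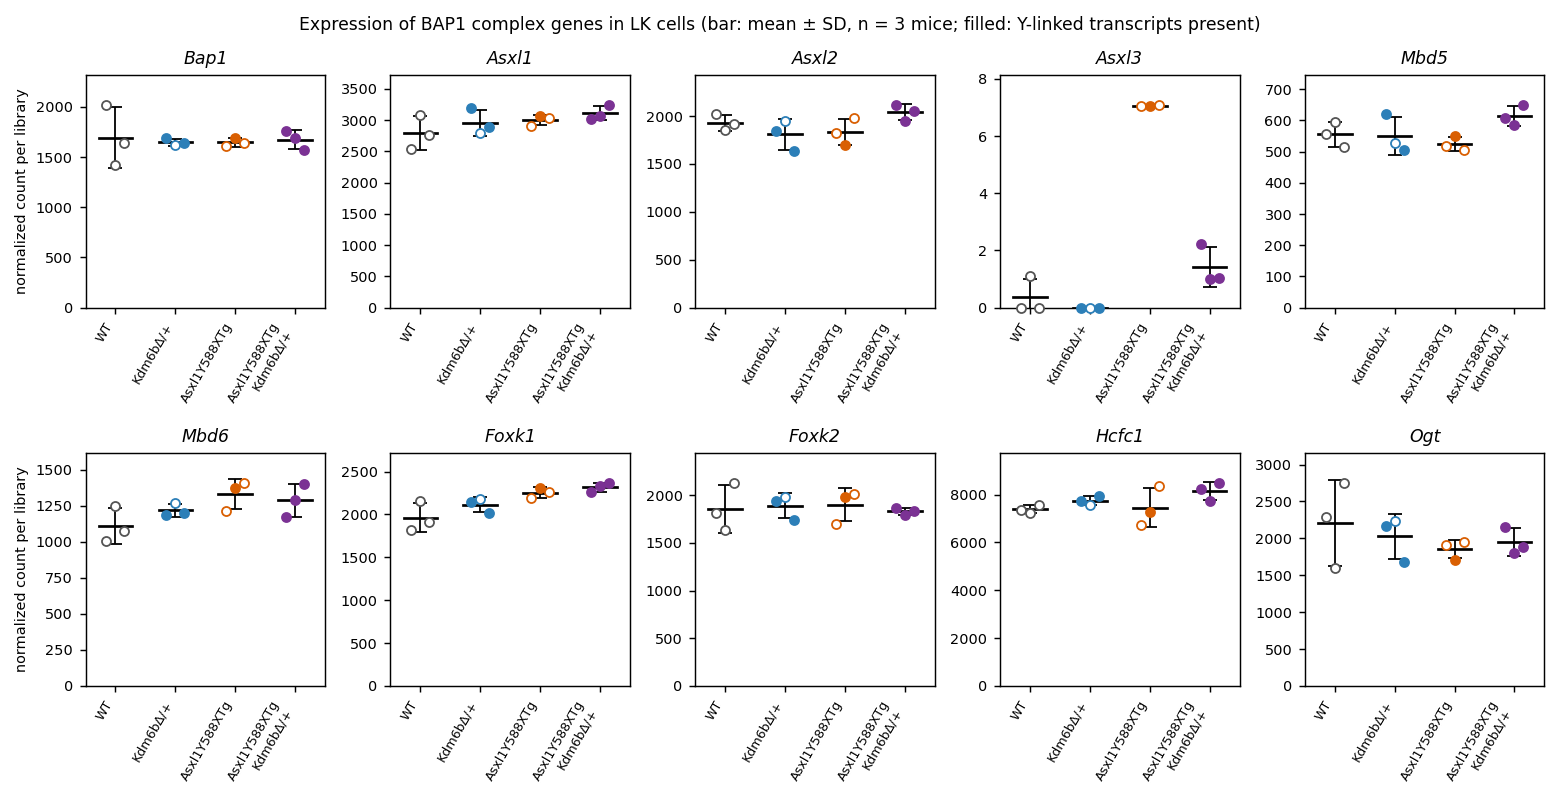
Normalized counts (vertical axes, from 0, a scale for each gene) of the 10 genes in each of the 12 libraries by genotype; circles are mice, filled where Y-linked transcripts were present, and bars are means with SD (n = 3). Most genes are level across genotypes, Ogt and Bap1 are widest in WT, and Asxl3 has at most 7 counts in a library.

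With a term for Y-linked transcripts in a fit of all 12 libraries, the log2 difference between libraries with and without them was 0.00 (SE 0.09) for Hcfc1 and -0.20 (SE 0.17) for Ogt. Kdm6a, an X-linked gene with a Y-linked counterpart, was lower by a log2 difference of -0.75 (SE 0.07, adjusted p = 0.000174, edgeR's quasi-likelihood test), and no member passed, beside 6 of 15825 genes. The X-linked genes Eif2s3x (-0.42, SE 0.18), Kdm5c (-0.42, SE 0.09) and Ddx3x (-0.04, SE 0.08) did not pass. Asxl2 had the smallest unadjusted p-value of the members for this term, with a log2 difference of -0.16 (SE 0.08, adjusted p = 0.9998, edgeR's quasi-likelihood test).

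Whether the Kdm6b deletion changed these genes differently with and without the transgene was tested as an interaction over all 12 libraries. None of the 9 members passed, and 0.0126% of all genes did. At an unadjusted p under 0.05 there was 1 member, Asxl2, against 6.87% of all genes (0 to 3 members without each library in turn, with 3 without WT mouse 2). Asxl2 had an interaction of 0.25 on the log2 scale (SE 0.11, adjusted p = 0.722, edgeR's quasi-likelihood test). That of Mbd5 was 0.24 (SE 0.14), that of Mbd6 -0.18 (SE 0.13) and that of Ogt 0.20 (SE 0.24, 95% interval -0.32 to 0.72). Without 1 library the interaction of Ogt ran from 0.0041 (without WT mouse 3) to 0.38 (without WT mouse 2), and that of Mbd6 from -0.28 (without WT mouse 2) to -0.12 (without WT mouse 1).

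The balance between paralogs was then compared, since a ratio within a library does not depend on the scaling between libraries. Of the summed Asxl level per kb, Asxl1 made up 76.9% ± 1.86 (SD over 12 libraries), Asxl2 23.1% ± 1.87 and Asxl3 0.0272% ± 0.0374. Foxk1 made up 44.5% ± 2.81 of the Foxk level, and Mbd6 90.6% ± 1.05 of the summed Mbd5 and Mbd6 level. The log2 ratio of Mbd6 to Mbd5 per kb was 2.99, 3.21 and 3.20 in WT, 3.08, 3.40 and 3.39 in Kdm6bΔ/+, 3.37, 3.46 and 3.62 in Asxl1Y588XTg and 3.09, 3.27 and 3.25 in Asxl1Y588XTg Kdm6bΔ/+ mice. The Asxl1Y588XTg libraries were above all WT and all Asxl1Y588XTg Kdm6bΔ/+ libraries. The difference in log2 ratio was 0.35 against WT, and Asxl1Y588XTg Kdm6bΔ/+ differed from Asxl1Y588XTg by -0.28. Both had p = 0.1 in a two-sided exact permutation test, the smallest that 3 against 3 mice allow, and 0.4 after Benjamini-Hochberg adjustment over 12 ratio comparisons. The ratio of Foxk1 to Foxk2 was higher in Asxl1Y588XTg Kdm6bΔ/+ than in Kdm6bΔ/+ mice by 0.18 on the log2 scale with no overlap, with the same p-values in the exact permutation test. The other 9 ratio comparisons, among them all 4 of Asxl1 to Asxl2, overlapped between groups.

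**Figure D4:**
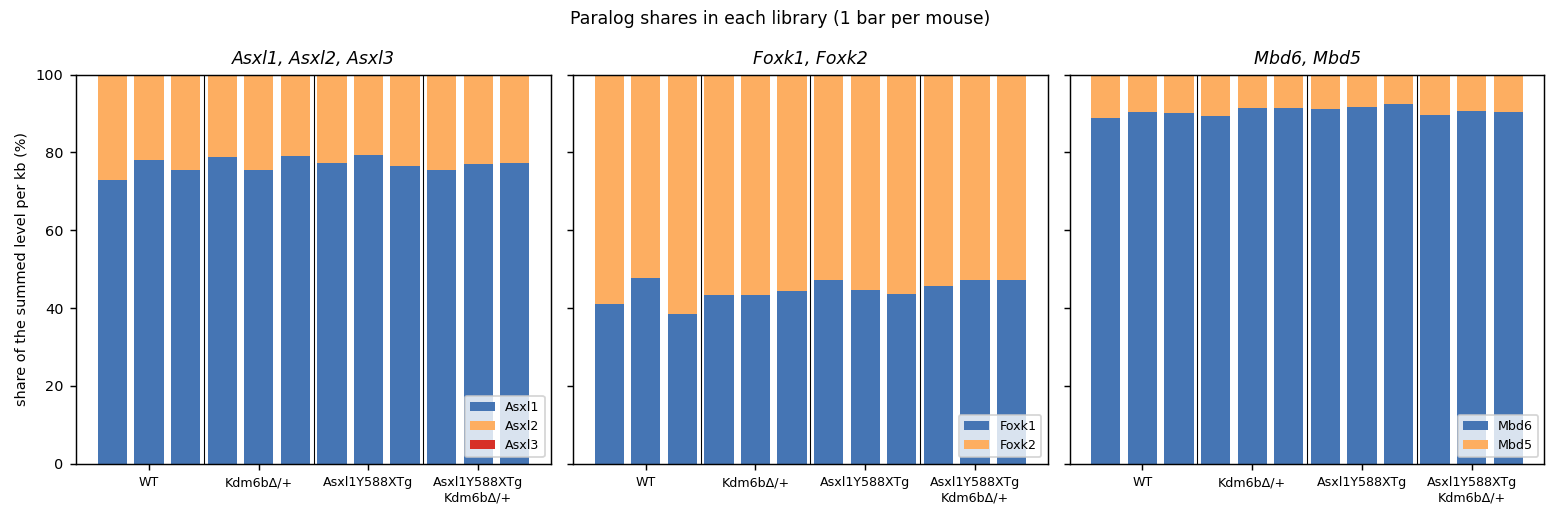
Share of the summed level per kb (vertical axis, percent) held by each paralog in the Asxl, Foxk and Mbd5/Mbd6 pairs or families, 1 bar per mouse, grouped by genotype. Asxl1 holds 73.0% to 79.4%, Foxk1 38.4% to 47.7% and Mbd6 88.8% to 92.5% in every library, and Asxl3 is too low to see.

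Genes that act beside the complex were examined in 7 lists of 50 genes, of which 49 were tested. None passed the threshold in any of the 4 comparisons or in the interaction, and 5, 1, 5, 4 and 0 of the 49 had an unadjusted p under 0.05, in the order of comparisons used above with the interaction last. Over all genes tested those shares were 9.35%, 3.49%, 15.4%, 12.2% and 6.87%, so the lists held about as many such genes as the background or fewer. Among the H2A ubiquitin ligase genes of Polycomb repressive complex 1 (11 genes), Pcgf2, which encodes the RING-finger subunit MEL18, had the smallest p-value in a pair of comparisons. It ran from 42.1 to 61.0 normalized counts in WT, 38.7 to 52.9 in Kdm6bΔ/+, 89.5 to 128 in Asxl1Y588XTg and 58.0 to 86.7 in Asxl1Y588XTg Kdm6bΔ/+ mice. The Asxl1Y588XTg libraries were above those of every other genotype; groups did not overlap for 15.7% of all genes against WT and for 21.2% against Asxl1Y588XTg Kdm6bΔ/+. Pcgf2 had a log2 fold change of 1.16 (SE 0.28) against WT and of -0.63 (SE 0.23) for Asxl1Y588XTg Kdm6bΔ/+ against Asxl1Y588XTg, with adjusted p-values of 0.0866 and 0.201 in edgeR's quasi-likelihood test. In this list the smallest p-value fell on Pcgf1 for Kdm6bΔ/+ against WT (log2 fold change 0.71, SE 0.28) and for the interaction (-0.70, SE 0.35), and on Pcgf5 for Asxl1Y588XTg Kdm6bΔ/+ against Kdm6bΔ/+ (-0.21, SE 0.08). Both encode alternative RING-finger subunits.

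Of the 9 other H2A deubiquitinase genes, Usp44 had the smallest p-value for Asxl1Y588XTg against WT. It ran from 28.4 to 57.6 normalized counts in WT and 69.9 to 91.6 in Asxl1Y588XTg mice, a log2 fold change of 0.88 (SE 0.33, adjusted p = 0.376, edgeR's quasi-likelihood test). The smallest p-value fell on Usp3 for Kdm6bΔ/+ against WT (log2 fold change -0.14), on Usp46 for Asxl1Y588XTg Kdm6bΔ/+ against Asxl1Y588XTg (0.20), and on Usp16 for Asxl1Y588XTg Kdm6bΔ/+ against Kdm6bΔ/+ (-0.15) and the interaction (-0.27). Of the 5 genes for relatives of BAP1 and of the DEUBAD domain, Uchl1, a neuronal ubiquitin hydrolase, had the smallest p-value for Kdm6bΔ/+ against WT (log2 fold change -1.28, SE 0.61) and for Asxl1Y588XTg Kdm6bΔ/+ against Kdm6bΔ/+ (1.38, SE 0.48), at no more than 43.3 normalized counts in any library. Uchl3 had it in the other three tests, with values of 0.15, -0.16 and -0.34.

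Of the 5 other partners and regulators of BAP1, Ube2o, whose product ubiquitinates BAP1, was at 587 to 781 normalized counts in Asxl1Y588XTg and 456 to 554 in Asxl1Y588XTg Kdm6bΔ/+ mice, without overlap, as for 21.2% of all genes. The log2 fold change was -0.43 (SE 0.13, adjusted p = 0.133, edgeR's quasi-likelihood test), and the interaction of Ube2o, also the smallest p-value of its list, was -0.35 (SE 0.19). The list's smallest p-value fell on Tnpo1 for Asxl1Y588XTg against WT (log2 fold change -0.11), on Kdm1b for Kdm6bΔ/+ against WT (-0.14) and on Hcfc2 for Asxl1Y588XTg Kdm6bΔ/+ against Kdm6bΔ/+ (-0.18). Among the O-GlcNAc and hexosamine genes, of which 6 of 7 were tested, Gfpt2, an enzyme of the hexosamine pathway that supplies the substrate of OGT, ran from 0 to 8.74 normalized counts in WT, 20.3 to 25.2 in Asxl1Y588XTg and at most 14.8 in Asxl1Y588XTg Kdm6bΔ/+ mice. Its log2 fold changes were 2.18 (SE 0.86) against WT and -1.32 (SE 0.45) for the latter pair, with adjusted p-values of 0.425 and 0.183 in edgeR's quasi-likelihood test, and its interaction was -2.14 (SE 1.08). Pgm3 (log2 fold change -0.26) and Uap1 (-0.16), enzymes of the same pathway, had the smallest p-values for Kdm6bΔ/+ against WT and for Asxl1Y588XTg Kdm6bΔ/+ against Kdm6bΔ/+. Oga, which encodes the enzyme that removes O-GlcNAc, was at 2550 ± 426 normalized counts (SD, n = 3) in WT and 2689 ± 72.1 in Asxl1Y588XTg mice.

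Among the 8 genes for transcription factors and co-factors that bind HCFC1, Zfp143 had the smallest p-value for Asxl1Y588XTg against WT (log2 fold change -0.22, SE 0.09), for Kdm6bΔ/+ against WT (-0.16) and for the interaction (0.28). Gabpa (0.09) and Thap1 (-0.27) had it for Asxl1Y588XTg Kdm6bΔ/+ against Asxl1Y588XTg and against Kdm6bΔ/+. Among the 5 other genes of the methyl-CpG-binding domain family, Mbd2 was at 2477 to 2648 normalized counts in Asxl1Y588XTg and 2832 to 2980 in Asxl1Y588XTg Kdm6bΔ/+ mice, with a log2 fold change of 0.19 (SE 0.06, adjusted p = 0.181, edgeR's quasi-likelihood test) and an interaction of 0.13. The smallest p-value of that list fell on Mbd4 for Asxl1Y588XTg against WT (log2 fold change -0.19) and on Mbd1 for Kdm6bΔ/+ against WT (0.10).

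Across the 12 libraries, which differ in genotype and share the scaling, members varied together in some pairs. Pearson's r of log2 CPM (counts scaled to library size) was 0.88 for Foxk1 and Mbd6, 0.83 for Asxl1 and Foxk1, and 0.74 for Asxl1 and Mbd6. It was -0.57 for Asxl1 and Bap1, and -0.04 for Asxl1 and Asxl2. By Spearman's rho the 4 pairs with Asxl1 were at 0.63 (Foxk1), 0.57 (Mbd6), -0.25 (Bap1) and 0.03 (Asxl2), so the value for Bap1 was much weaker by rank. Within genotypes, as deviations from the genotype means, the 5 values of Pearson's r were 0.83, 0.77, 0.65, -0.69 and -0.27. Other pairs were about as strong there, with 0.77 for Foxk2 and Ogt and -0.76 for Bap1 and Foxk1. A single library, WT mouse 1, held the lowest level of Asxl1 (2545 normalized counts), Foxk1 (1822) and Mbd6 (1005). That library also held the highest level of Bap1 (2020) and was the least correlated with the rest. Correlations without WT mouse 1 were not computed, so how far these values rest on it was not tested. Of 9892 genes, 42 were more like Asxl1 than Foxk1 was, and 152 more than Mbd6, by Pearson's r. These numbers were 441 and 680 by Spearman's rho, and 183 and 593 within genotypes. Among 9892 other genes, the patterns most like that of Asxl1 were those of Mpzl1 (r = 0.94), Fry (0.90) and Atxn1l (0.89), and those most like Bap1 were Asrgl1 (0.91), Mrps28 (0.90) and Rpp25l (0.90). None of these 6 genes stayed among the leading 3 by rank correlation or by deviations from the genotype means.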

How the data were processed

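Per the study's methods, reads were trimmed with Trimmomatic, aligned to mm10 with STAR and counted per gene with HTSeq. The table deposited by the authors holds these raw counts, with no normalization in the table. The gene annotation and strand setting are not given in the sources used here, and the methods and the labels name different library kits and sequencers. Columns were assigned to samples by name.

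Counts were tested with edgeR 4.0.16 (R 4.3.3; TMM scaling, filterByExpr, robust quasi-likelihood fits, Benjamini-Hochberg adjustment over 15825 genes), each pair of genotypes on its own 6 libraries and the interaction on all 12. A call needed an adjusted p under 0.05 and a fold change above 1.5. No more than 3 mice per genotype stood behind each value, and totals of 14451522 to 23482563 counts limited genes with few counts. Lengths per kb are exon unions of GENCODE vM21, so levels per kb assume that reads spread over all annotated exons. The scripts were tested on simulated data.

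Alternatives were DESeq2 1.42.0, RLE scaling, no filter, a mean count of at least 50, a replicate block and leaving out each library. Others were 1 fit of all libraries and that fit with a term for Y-linked transcripts. For ratios, 0.5 counts were added. Named genes were the 10 members, Kdm6b, any called gene of a list, the gene with the smallest p-value in each list and comparison, and the 3 genes most correlated with Asxl1 and with Bap1; 1 result under this rule is not reported here. Oga and the genes overlapping on the opposite strand were added after their values were seen. Kdm6a, Eif2s3x, Kdm5c and Ddx3x were named outside this rule, for the Y-linked term only. The members and lists were chosen with earlier results of these data known. Further marker lists (B, T and NK, monocyte, mast, erythroid and stromal cells) are reported with the other observations. Protein sequences were not used here.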

Additional observations from a re-analysis of the deposited data

How the results depend on the processing

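No member was called under any alternative in any comparison or the interaction. In 630 alternative fits of members the smallest adjusted p was 0.0747 (edgeR, Ogt without WT mouse 2) and the largest log2 fold change in size was -0.44, of the same fit. The counts of genes called, which set the background, moved more. For Asxl1Y588XTg against WT, 255 genes became 473 with DESeq2, 619 without a filter, 149 at a mean count of at least 50, 101 with the replicate block, 446 in 1 fit of all libraries, and 110 to 251 without each library in turn. For Kdm6bΔ/+ against WT, 15 became 39 with DESeq2, 53 without a filter, 7 in 1 fit, 6 with the term for Y-linked transcripts, and 7 to 26 without each library. For Asxl1Y588XTg Kdm6bΔ/+ against Asxl1Y588XTg, 275 became 446 with DESeq2, 812 without a filter, 149 at the higher minimum, 71 with the block, 162 in 1 fit, 48 with the Y-linked term, and 56 to 274 without each library. For Asxl1Y588XTg Kdm6bΔ/+ against Kdm6bΔ/+, 15 became 104 with DESeq2, 211 without a filter, 3 in 1 fit, 2 with the Y-linked term, and 5 to 34 without each library. The interaction's 2 became 66 with DESeq2, 258 without a filter, 0 at the higher minimum (749 genes at an unadjusted p under 0.05), 0 with the Y-linked term (1028 genes), and 0 to 10 without each library. The single libraries whose omission moved these counts by over 1.5 times were WT mouse 3 and each Asxl1Y588XTg mouse in the first comparison, WT mouse 3 and Kdm6bΔ/+ mice 1 and 2 in the second, Asxl1Y588XTg Kdm6bΔ/+ mice 1 and 2 in the third, Kdm6bΔ/+ mouse 2 and Asxl1Y588XTg Kdm6bΔ/+ mouse 1 in the fourth, and every library for the interaction. The causes were not tested.

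Whether the replicate numbers pair the mice is not given in the sources used here. Libraries with the same number had deviations correlated at -0.12 to 0.08 over 18 pairs (median -0.04), beside -0.14 to 0.18 for different numbers. Correlations of this kind show no shared signal but cannot decide whether mice were paired. With the replicate block no member was called either, and the adjusted p of Mbd5 for Asxl1Y588XTg Kdm6bΔ/+ against Asxl1Y588XTg was 0.348 in edgeR.

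The Y-linked term turned the sign of 5 log2 fold changes near 0, those of Asxl2 (0.014) and Ogt (0.0029) for Kdm6bΔ/+ against WT, Asxl1 (-0.0011) and Bap1 (-0.0098) for Asxl1Y588XTg Kdm6bΔ/+ against Asxl1Y588XTg, and Ogt (0.011) for Asxl1Y588XTg Kdm6bΔ/+ against Kdm6bΔ/+. Leaving out each library in turn turned the sign of 16 estimates in 26 fits, all short of a call. For Asxl1Y588XTg against WT the log2 fold changes then ranged from -0.15 to 0.10 for Bap1, -0.054 to 0.14 for Foxk2, -0.075 to 0.082 for Hcfc1 and -0.0022 to 0.17 for Kdm6b. For Kdm6bΔ/+ against WT they ranged from -0.15 to 0.11 for Bap1, -0.055 to 0.14 for Foxk2, -0.31 to 0.073 for Ogt and -0.10 to 0.057 for Mbd5. For Asxl1Y588XTg Kdm6bΔ/+ against Asxl1Y588XTg they ranged from -0.11 to 0.011 for Foxk2 and -0.096 to 0.036 for Mbd6, and against Kdm6bΔ/+ from -0.013 to 0.064 for Bap1 and -0.18 to 0.021 for Ogt. Interactions ranged from -0.10 to 0.036 for Asxl1, -0.086 to 0.17 for Bap1, -0.19 to 0.0060 for Foxk2 and -0.010 to 0.14 for Hcfc1. The difference in the log2 ratio of Foxk1 to Foxk2 rested on single WT libraries. Without each library in turn it ranged from -0.040 (without WT mouse 3) to 0.24 (without WT mouse 2) for Kdm6bΔ/+ against WT, a change of sign, and from 0.047 to 0.32 without the same libraries for Asxl1Y588XTg against WT. None of the 6 genes named for their likeness to Asxl1 or Bap1 stayed among the leading 3 under the other 2 measures.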

Other observations

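The remaining marker lists are given as summed normalized counts per genotype (mean ± SD, n = 3). B cell markers summed to 2202 ± 782 in WT, 1744 ± 477 in Kdm6bΔ/+, 1539 ± 932 in Asxl1Y588XTg and 2257 ± 950.3 in Asxl1Y588XTg Kdm6bΔ/+ mice. T and NK cell markers summed to 3705 ± 186, 4207 ± 608, 3553 ± 277 and 3467 ± 351 in the same order. Monocyte and macrophage markers summed to 20888 ± 1826, 20944 ± 1274, 19883 ± 2393 and 20599 ± 1681, and mast cell and basophil markers to 2705 ± 784, 2179 ± 422, 2573 ± 416 and 2275 ± 587. Erythroid markers summed to 8357 ± 1180 in WT, 5281 ± 2539 in Kdm6bΔ/+, 7647 ± 4067 in Asxl1Y588XTg and 4175 ± 750.0 in Asxl1Y588XTg Kdm6bΔ/+ mice, and endothelial and stromal markers to 1935 ± 131, 2433 ± 689, 2365 ± 173 and 2824 ± 843. The only markers with 0 counts in a library were Cd3e and Cd8a, in WT mouse 1.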
